A study of Caenorhabditis elegans with 2 samples.

Results

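The members described here are the 194 nuclear genes that the Ensembl release 115 annotation of the worm assembly WBcel235 gives the biotype lincRNA (long intergenic noncoding RNA), out of 46890 nuclear genes of all biotypes. Membership follows that annotation alone, and no measured value enters the rule. The class itself was chosen with earlier results of these data known. The measurement is chromatin immunoprecipitation with sequencing (ChIP-seq) of ELT-2, a GATA-type zinc finger transcription factor, in whole late embryos of Caenorhabditis elegans. All samples belong to 1 group of 2 biological replicates. The strain is OP56, with the genotype unc-119(ed3) III; wgIs56, and the animals were hermaphrodites collected 4 hours after synchronization by egg bleaching. The stably expressed transgene gives ELT-2 a C-terminal GFP and FLAG tag, and an antibody to GFP was used for the precipitation. The labels name no change at the worm's own elt-2 gene, and untagged ELT-2 would not be seen by this antibody. Control libraries were not analysed here, so peaks are positions called by the authors, and no comparison between conditions was made.

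Long intergenic noncoding RNAs are transcripts that lie between protein-coding genes and have no recognised long reading frame. In worms most of them carry only a serial name of the form linc-number and have no assigned function. ELT-2 is made in the intestine, where it binds GATA sites with the core TGATAA and maintains the expression of digestive, metabolic and structural genes. A promoter of a lincRNA gene with an ELT-2 peak is therefore a place where the intestinal regulator was found near a noncoding transcript, and not a measure of that transcript.

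Of the 194 genes, 169 have a name of the form linc-number, 24 have only a sequence name and 1, lep-5, has another common name. The median gene length was 761 bp, 187 genes had a single annotated transcript, and 56 had 1 exon. No lincRNA gene is annotated on the mitochondrial genome. The deposited ce11 lists hold 25770 entries for replicate 1, 25986 for replicate 2, 30000 for the pooled replicates and 4098 thresholded peaks, of which 4076 are nuclear. The reads per library are unknown from these lists, so no depth can be stated. RNA was not measured, so the embryos cannot be checked against marker transcripts. Promoter summits were present at 29 of 59 intestinal genes listed as markers (49.2%), against 13.6% of all nuclear protein-coding genes. They were present at 1 of 12 markers of muscle, pharynx, epidermis and neurons (8.33%), a share that rests on 1 gene. Both lists were chosen with earlier results of these data known, so these shares are no independent check of the sample.

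ELT-2 peaks lay at the promoters of a minority of lincRNA genes, at about the rate of protein-coding genes. A promoter window held the 1000 bp before and the 200 bp after the 5′ end of each transcript, and a gene was counted when the summit of a thresholded peak fell in its window. This was so for 24 of 194 lincRNA genes, or 12.4% (95% exact interval 8.09 to 17.8%), against 13.6% of 19973 nuclear protein-coding genes and 9.58% of all nuclear genes. Protein-coding genes have 1.49 annotated 5′ ends on average and lincRNA genes 1.03, which gives the protein-coding class more windows. With only the 5′ end of the gene, the shares were 12.4% of lincRNA genes and 12.5% of protein-coding genes. Intervals cover counting error only, and no test of a difference between gene classes was made. A share this near the background does not set the lincRNA genes apart.

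Other noncoding classes spread widely around that value. Thresholded promoter summits were found at 41.7% of 612 tRNA genes, 35.3% of 346 snoRNA genes, 19.4% of 129 snRNA genes and 14.6% of 261 miRNA genes, which have 2.5 annotated 5′ ends on average and so more windows. Lower shares were found for the 7764 genes of the general ncRNA class (10.4%), the 100 antisense RNA genes (4.00%), the 2128 pseudogenes (3.34%) and the 15363 piRNA genes (2.73%). The lincRNA interval holds the shares of the miRNA, general ncRNA and protein-coding classes, and lies below those of the tRNA, snoRNA and snRNA classes.

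**Figure D1:**
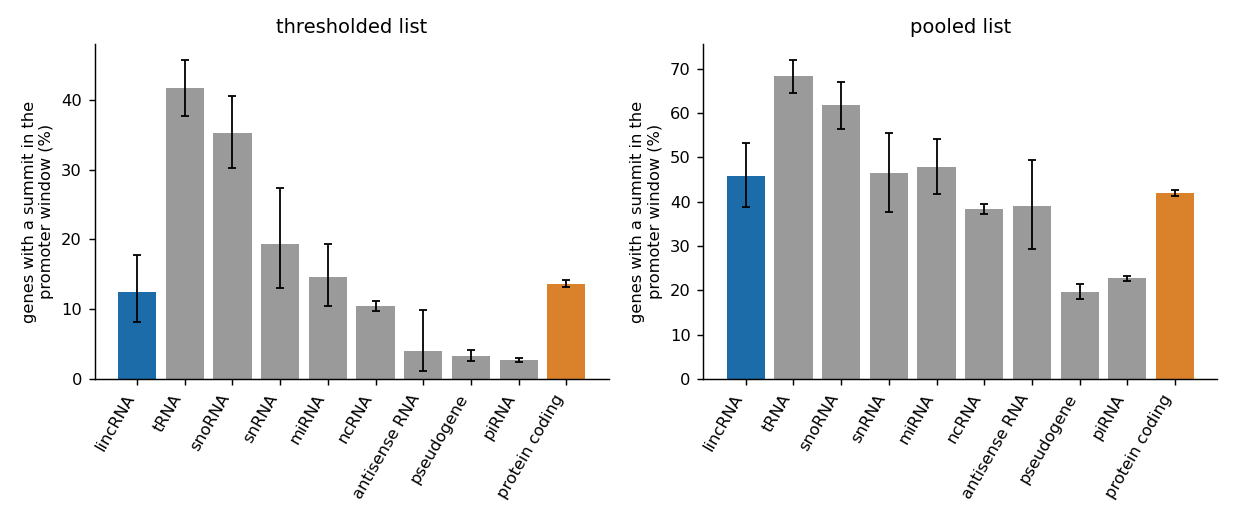
Percent of nuclear genes of each annotated class with a summit in the promoter window, for the thresholded list (left) and the pooled list with its weak entries (right). Bars are shares and lines are 95% exact binomial intervals; lincRNA genes (blue) stand at 12.4% and 45.9%, and protein-coding genes (orange) at 13.6% and 42.0%.

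The 24 genes held 28 thresholded summits, and no peak was counted for more than 1 lincRNA gene. Of the genes, 20 had 1 summit and 4 had a pair (linc-60, linc-69, linc-103 and K09A9.12). The pair of linc-60 lies in 1 and the same peak interval, and the intervals of the K09A9.12 pair overlap. Each summit is counted here as 1 peak, so the 28 peaks are not all separate regions. Of the 28 summits, 7 lay more than 500 bp upstream of the lincRNA 5′ end, 9 lay between 200 and 500 bp upstream, 7 lay within 200 bp upstream and 5 lay downstream of it. By annotation, 20 of the summits were in no protein-coding gene and not in the lincRNA gene itself. A further 5 were inside the lincRNA gene, and 4 were inside a protein-coding gene, with the linc-37 summit counted in both because linc-37 overlaps zip-2. Those in protein-coding genes were in exons of let-383, fars-2 and ttr-34 and in an intron of zip-2. Peak signal is the authors' own value and serves here to describe and rank peaks within a list. Replicate signals of the same peak are also set side by side, although a common scale of the lists is not known. Peak signal ran from 69.8 to 589 over these 28 peaks with a median of 121, against 67.6 to 1382 with a median of 108 over all nuclear thresholded peaks. Of the 28, 18 (64.3%) were among the 2049 strongest thresholded peaks, against 49.7% of all nuclear ones, and 2 were among the first 100.

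Each summit was also set against the neighbouring protein-coding genes. Of the 28 summits, 14 also fell in the promoter window of a protein-coding gene and 14 did not. Of the 4048 other nuclear thresholded summits, 2312 fell in such a window and 1736 did not, and the difference was not tested. By gene, 12 had all their summits in a protein-coding window, 11 had none there, and linc-69 had 1 summit of each kind. Measured by distance, 21 of the 28 summits were nearer to the lincRNA 5′ end than to any protein-coding 5′ end. No matching share of other summits is given for this distance. The promoter windows of 89 lincRNA genes overlap a protein-coding window, and 15 of these genes (16.9%, 95% exact interval 9.75 to 26.3%) had a summit. Of the 105 whose window overlaps none, 9 had a summit (8.57%, 3.99 to 15.6%). These intervals overlap, and the difference was not tested.

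**Figure D2:**
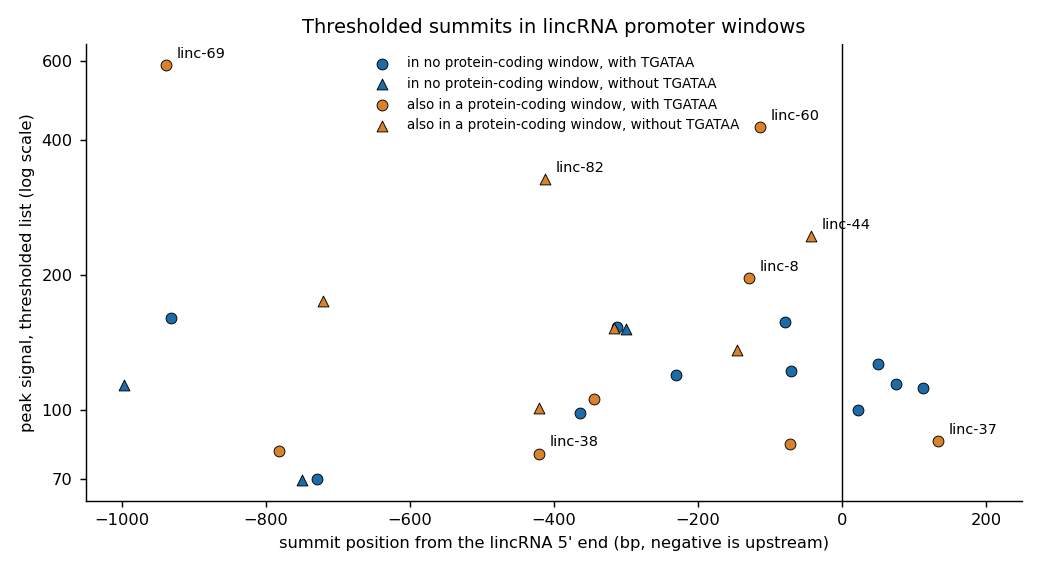
Each of the 28 thresholded summits by its position from the lincRNA 5′ end (bp) and its peak signal (log scale). Blue marks lie in no protein-coding promoter window and orange marks also lie in one; circles have a TGATAA within 50 bp and triangles have none; the 6 highest marks, from linc-69 at 589 to linc-92 at 176, are all orange.

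The first set gives the core site and 10 bases on either side for lincRNA summits that lie in no protein-coding window, read 5′ to 3′ along the strand that spells TGATAA. Capitals mark the site nearest to the summit, and the stretch of linc-127 holds a second TGATAA in lower case. Coordinates are ce11, which is the assembly WBcel235, and the bases are from RefSeq's copy of that assembly. They are shown because a neighbouring protein-coding promoter is farthest from these peaks.
K09A9.12 distal summit, chrX:15598890-15598915, plus strand: tgtgctctgcTGATAAgcaataatcg
K09A9.12 proximal summit, chrX:15599056-15599081, plus strand: tttgattgttTGATAAaatctaaaca
C39B5.16, chrIII:2233569-2233594, plus strand: tatctttcttTGATAAactcactaca
linc-150, chrX:2370848-2370873, minus strand: aaattttcacTGATAAgaattattgc
linc-69 intronic summit, chrV:8767647-8767672, plus strand: gaaaacaattTGATAAgagcattcaa
linc-97, chrIV:8846159-8846184, minus strand: ttcgcttcacTGATAAcctagtagtt
linc-103, chrX:6256537-6256562, minus strand: caccgagcacTGATAAcgagggcacg
linc-100, chrX:16775379-16775404, plus strand: gacttgacagTGATAAgctgatagca
linc-127, chrII:5459740-5459765, plus strand: caatttgatcTGATAAattgataacc
linc-81, chrV:19898138-19898163, plus strand: cactaataatTGATAAccgataagct

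The second set gives the same stretch for the pair of strongest lincRNA peaks and for the genes next to the intestinal genes zip-2 and lys-1, all of which share a protein-coding window.
linc-69 upstream summit, chrV:8768710-8768735, minus strand: atttggaaacTGATAAgactatatca
linc-60, chrIV:14959451-14959476, plus strand: acacatttgcTGATAAgaactcaatt
linc-37, chrIII:833124-833149, minus strand: aattgaagatTGATAAgcggagtttt
linc-38, chrV:10277765-10277790, minus strand: aaacgtccagTGATAAgggtaatcag

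Among the sequences of both sets, linc-60, linc-150, linc-69, linc-100, linc-37, linc-38 and the distal summit of K09A9.12 have a G directly after the core, the longer form TGATAAG. C39B5.16, linc-97, linc-103, linc-127, linc-81 and the proximal summit of K09A9.12 have another base there. Sites on chromosome I are not printed.

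The core site was frequent at lincRNA summits. TGATAA, on either strand within 50 bp of the summit, was found at 19 of the 28 (67.9%, 95% exact interval 47.6 to 84.1%), against 43.7% of all nuclear thresholded summits. That interval lies above 43.7%, but this does not hold for other definitions. Within 25 bp the share was 42.9% (24.5 to 62.8%), against 28.0%, for TGATAAG it was 39.3% (21.5 to 59.4%), against 26.2%, and among the 2049 strongest thresholded peaks it was 61.1% (35.7 to 82.7%), against 50.8%. Paired summits of 1 gene are not independent, and no test was made. In a window of the same width 500 bp to the left, it was found at 10.7% of the lincRNA summits and 9.57% of all. The reversed word AATAGT, with the same base composition, was found at 7.14% of lincRNA summits and 6.97% of all. The share was 78.6% (49.2 to 95.3%) for the 14 lincRNA summits in no protein-coding window, against 50.6% of the other nuclear summits outside such windows. It was 57.1% (28.9 to 82.3%) for the 14 in a protein-coding window, against 38.3% of the other nuclear summits within them. Both of these last intervals include the value they are set against, and the differences between sets were not tested. The distance from site to summit ran from 0.5 bp, at linc-60, to 39.5 bp, at linc-100, with a median of 13.5 bp, and 11 of the 19 summits had more than 1 site. At linc-97 and at the proximal summit of K09A9.12 there were 3.

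**Figure D3:**
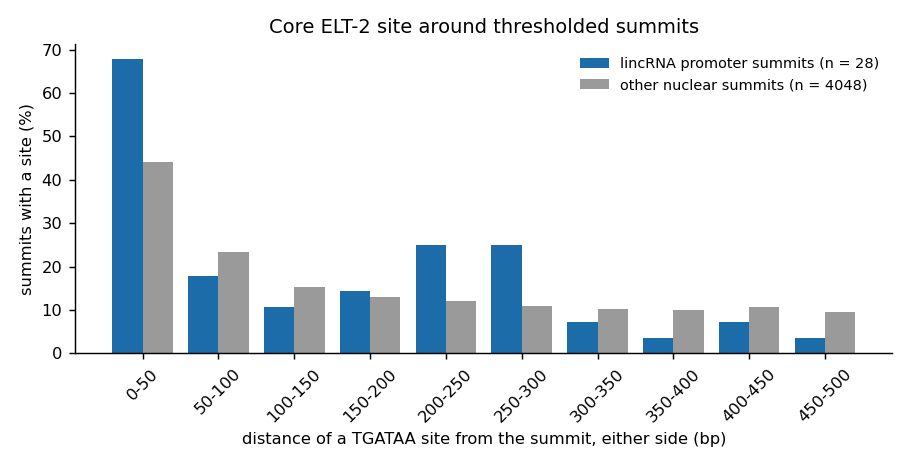
Percent of summits with the centre of a TGATAA site in each 50 bp step of distance from the summit, on either side, for lincRNA promoter summits (blue, n = 28) and all other nuclear thresholded summits (grey, n = 4048). In the step nearest the summit lincRNA summits stand at 67.9% and other summits at 44.2%; each lincRNA summit is worth several percentage points, so the later steps rest on 1 to 7 summits each.

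The word itself is common in promoters. It was in the window of 133 of 194 lincRNA genes (68.6%), against 72.0% of protein-coding genes, with 1 window for each gene. Of the 133 lincRNA windows with TGATAA, 21 (15.8%) had a thresholded summit, and of the 61 without it, 3 (4.92%). For protein-coding genes these shares were 13.8% and 8.98%.

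The lincRNA genes whose summits lie in no protein-coding window had peaks ranked from 1006 to 3935 by signal among the 4098 thresholded peaks. The strongest belonged to K09A9.12 on chromosome X (15599803 to 15600688, plus strand), with a signal of 160 in the thresholded list, 97.5 in replicate 1 and 62.9 in replicate 2. Its summit lay 931 bp upstream, and a second, weaker one of signal 70.3 lay 729 bp upstream. That weaker summit had 35.1 in replicate 1, at rank 4632, and only 18.5 in replicate 2, at rank 10110. The nearest protein-coding 5′ end, of K09A9.8, was 1695 bp from the stronger summit. C39B5.16 on chromosome III (2233641 to 2234033, plus strand) had a signal of 157, with 69.1 in replicate 1 and 87.2 in replicate 2, and its summit lay only 79 bp upstream of the 5′ end. Its upstream neighbour fbxa-47, an F-box gene, is on the opposite strand and has its 5′ end 1102 bp from the summit. The 2 genes differ in which replicate was higher, so the order of such peaks is not fixed by these data.

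On chromosome X, linc-150 (2369181 to 2370544, minus strand) had a summit 312 bp upstream with a signal of 153, and 94.8 in replicate 1 and 65.6 in replicate 2. Its nearest protein-coding 5′ end was 4866 bp away. linc-54 (X, 14505700 to 14505868, minus strand) had a summit 300 bp upstream with a signal of 152, and 97.8 in replicate 1 and 57.4 in replicate 2. It is one of 3 summits outside protein-coding windows that had no TGATAA within 50 bp. linc-103 (X, 6256778 to 6258976, plus strand) is the most isolated of the 24 by this distance, with the nearest protein-coding 5′ end, of W05H9.4, 7101 bp from its stronger summit. That summit, 231 bp upstream, had a signal of 120, with 72.8 in replicate 1 and 52.9 in replicate 2. A second summit of linc-103, 996 bp upstream and close to the edge of the window, had a signal of 113 and no TGATAA, but did have the related word AGATAA. linc-100 (X, 16775220 to 16775505, minus strand) had its summit 74 bp inside its only exon, with a signal of 115, and 65.4 in replicate 1 and 53.7 in replicate 2. Its nearest protein-coding 5′ end belongs to mct-6, which is named as a monocarboxylate transporter, 4933 bp away. In these 4 X-linked genes replicate 1 was the higher of the pair at each strongest summit. Over all nuclear thresholded peaks, those of X included, the median log2 ratio of replicate 1 to replicate 2 was 0.20. Whether X differs from the autosomes in this ratio was not tested. The same order held at the X-linked genes K09A9.12 and linc-78, but not at linc-43, with 38.6 in replicate 1 and 41.2 in replicate 2.

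Of the remaining genes of this kind, linc-97 (IV, 8845774 to 8846093, minus strand) had a summit 71 bp upstream with a signal of 122, and 56.1 in replicate 1 and 63.7 in replicate 2. linc-167 (I, 3122011 to 3127661, plus strand), which at 5651 bp is the longest gene with a summit, had one 112 bp downstream in its intron, with a signal of 112, and 61.5 in replicate 1 and 50.6 in replicate 2. linc-127 (II, 5459265 to 5459761, minus strand) had one 22 bp downstream, with a signal of 99.8, and 59.1 in replicate 1 and 46.8 in replicate 2. Its downstream neighbour is daz-1, a germline RNA-binding protein gene. linc-81 (V, 19895684 to 19897795, minus strand) had a summit 364 bp upstream that lay in an exon of fars-2, a gene of a phenylalanyl tRNA synthetase, with a signal of 98.3, and 45.8 in replicate 1 and 51.7 in replicate 2. The weakest was T09F5.12 (V, 15164743 to 15166318, minus strand), with a summit 749 bp upstream, a signal of 69.8, and 40.0 in replicate 1 and 28.3 in replicate 2. That signal lies just above the lowest value of the thresholded list, 67.6, and this summit has no TGATAA.

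The strongest peaks at lincRNA genes were shared with protein-coding promoters. linc-69 (V, 8766699 to 8767745, minus strand) held the highest, with a signal of 589, 327 in replicate 1 and 266 in replicate 2. Its summit lay 939 bp upstream of linc-69 but 225 bp from the 5′ end of the divergent gene B0507.3. The second summit of linc-69, 49 bp inside the gene in an intron, had a signal of 127, with TGATAA, and was in no protein-coding window. linc-60 (IV, 14958931 to 14959349, minus strand) came next, with a signal of 429, 222 in replicate 1 and 207 in replicate 2. This summit lay 114 bp upstream of linc-60 and 589 bp from the 5′ end of Y41E3.1, the next gene on the same strand, so it was the nearer to the lincRNA. Its second summit, 317 bp upstream, had a signal of 153 and no TGATAA. Both replicates ranked the main peaks of linc-69 and linc-60 among their first 100 entries, at 22 and 65 in replicate 1 and 33 and 58 in replicate 2.

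Peaks without TGATAA made up 3 of the next 4 in order of signal. linc-82 (III, 3664858 to 3667041, plus strand) had a signal of 328, with 181 in replicate 1 and 147 in replicate 2, and its summit was 413 bp upstream and 141 bp from the 5′ end of C46F11.4. linc-44 (II, 5781921 to 5782113, minus strand) had a signal of 244, 43 bp upstream of its 5′ end and 364 bp from that of K05F1.6. This summit is the only one of the 28 within 200 bp of a tRNA gene, and none was that near a snoRNA, snRNA or miRNA gene. linc-8 (II, 2501838 to 2503802, minus strand), which has 5 exons, had a signal of 197 with TGATAA, 130 bp upstream of its 5′ end and 946 bp from that of gbas-1. linc-92 (V, 5789946 to 5790325, minus strand) overlaps the nuclear hormone receptor gene nhr-142 and had a signal of 176, with the summit 185 bp from the 5′ end of F44E7.9 and 720 bp upstream of linc-92. linc-78 (X, 2243115 to 2243239, plus strand), the shortest gene with a summit at 125 bp, had a signal of 136 without TGATAA, 146 bp upstream and 351 bp from the 5′ end of the ribosomal protein gene rpl-11.2. Of the other genes in this group, linc-153 shared its window with bir-1, a survivin-related gene, with a signal of 101. linc-53 shared one with let-383 (106), with a summit 12 bp from the 5′ end of let-383. linc-80 shared one with F32H2.12 (83.9) and linc-43 with F09A5.3 (81.2).

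**Figure D4:**
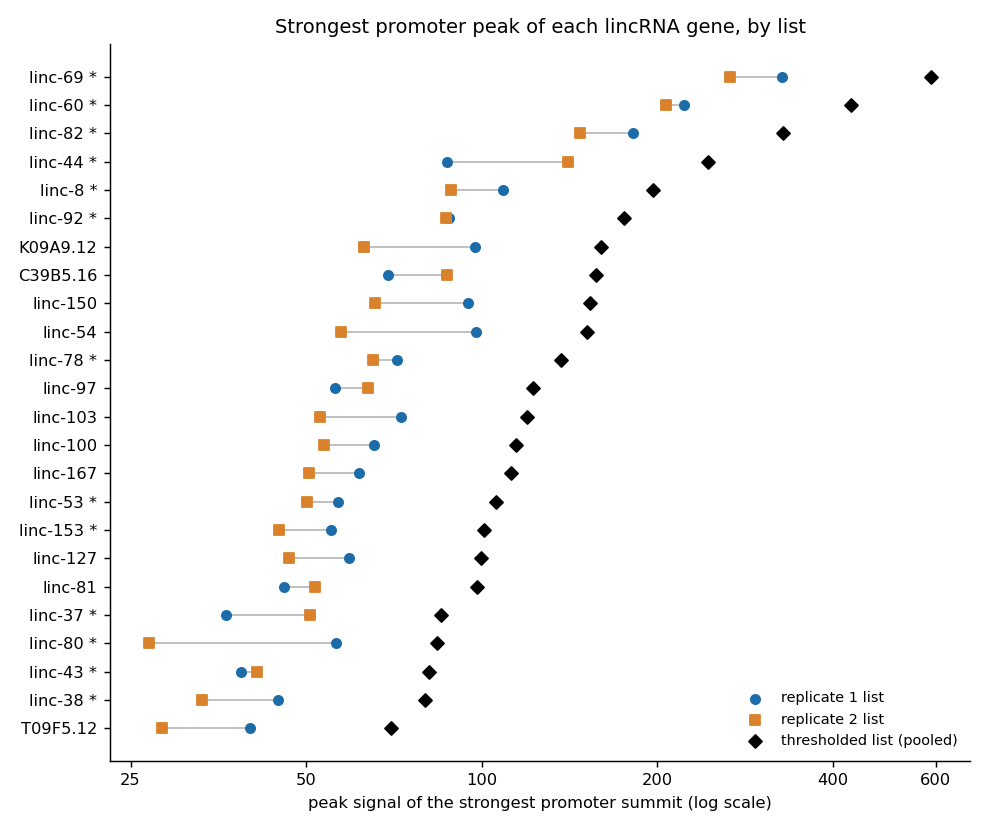
Signal of the strongest thresholded promoter peak of each of the 24 lincRNA genes (log scale), with the signal of the overlapping entry of nearest summit in replicate 1 (circles), replicate 2 (squares) and the thresholded list, whose signals are those of the pooled replicates (diamonds). An asterisk marks genes whose plotted summit also lies in a protein-coding promoter window; the diamonds run from 589 at linc-69 to 69.8 at T09F5.12, and the widest gap between replicates is at linc-80, with 56.3 in replicate 1 and 26.9 in replicate 2.

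The replicates gave these peaks similar deposited signals, although a common scale of the replicate lists is not known. Each of the 28 peaks overlapped an entry in both replicate lists. This is no independent support, because the thresholded list is derived from both replicates. The log2 ratio of replicate 1 to replicate 2 signal had a median of 0.29 and an SD of 0.44 over the 28 lincRNA peaks, against a median of 0.20 and an SD of 0.53 over the 4067 nuclear thresholded peaks with both entries. It ran from -0.75 to 1.06 among the lincRNA peaks. The peak of linc-80 was at the upper end, with rank 2253 in replicate 1 and 5646 in replicate 2. Both entries were among the first 4098 of their own list for 23 of the 28 lincRNA peaks (82.1%), against 73.0% of nuclear thresholded peaks. With the 4098 strongest entries of a single replicate in place of the thresholded list, 20 of the 24 genes were called in each replicate, and none of the 24 was lost in both.

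A small number of lincRNA genes lay next to known intestinal genes. Of 59 listed intestinal genes, 4 are the nearest upstream or downstream protein-coding neighbour of a lincRNA gene or overlap one, and 2 of these belong to lincRNA genes with a thresholded promoter summit. These are 6.78% and 3.39% of the list, against 2.04% and 0.265% of all protein-coding genes, and the differences rest on 4 and 2 genes and were not tested. linc-38 (V, 10276942 to 10277353, minus strand) is divergent from lys-1, a lysozyme gene expressed in the intestine, with 550 bp between the genes. The shared peak had a signal of 79.9, with 44.8 in replicate 1 and 33.2 in replicate 2, and its summit, with TGATAA 3.5 bp away, was 130 bp from the 5′ end of lys-1 and 421 bp from that of linc-38. linc-37 (III, 832984 to 833347, plus strand) overlaps zip-2, which encodes a bZIP factor of the infection response. The summit, in introns of both genes, lay 133 bp downstream of the 5′ end of linc-37 and 135 bp from a 5′ end of zip-2, with a signal of 85.1, and 36.5 in replicate 1 and 50.7 in replicate 2. It also lay in the window of ceeh-1, an epoxide hydrolase gene. The other two are without a thresholded summit. linc-49, which overlaps pho-4 and lies 182 bp from the intestinal acid phosphatase gene pho-1, had a weak pooled entry of signal 21.5. linc-83 lies 624 bp from elt-4, a small GATA factor gene, and had no entry in any of the lists. Of the 12 markers of other tissues, 1 neighboured a lincRNA gene: unc-15, the paramyosin gene of body wall muscle, next to linc-141, which had no entry in the pooled list or in either replicate.

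Despite the name of the class, 42 of the 194 genes overlap a protein-coding gene in the annotation, and so do 5 of the 24 with a promoter summit. The upstream protein-coding neighbour was on the opposite strand for 18 of 24 lincRNA genes with a summit (75.0%) and for 109 of 170 without one (64.1%). The median distance to it was 1119 bp with a summit and 2105 bp without. Genes with a summit had a median length of 458 bp (125 to 5651) and those without one 776.5 bp (101 to 6035), and 8 of the 24 and 48 of the 170 had 1 exon. These differences were not tested.

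By chromosome, the counts were small and their intervals wide. Summits were found at 7 of 38 lincRNA genes on X (18.4%, 95% exact interval 7.74 to 34.3%), against 14.8% of the protein-coding genes of X. On V it was 6 of 35 (17.1%, 6.56 to 33.6%), against 9.93%, and on II 3 of 43 (6.98%, 1.46 to 19.1%), against 14.0%. The other counts were 3 of 23 on I, 3 of 29 on III and 2 of 26 on IV, against 16.0%, 18.1% and 12.2% of protein-coding genes. All 6 intervals include the protein-coding share of the same chromosome. The X-linked genes held 9 of the 28 summits, 7 of them in no protein-coding window, while the autosomes held 19, also with 7 in no protein-coding window. The 9 include the pairs of linc-103 and K09A9.12, which are not independent. The same split of all nuclear summits by chromosome is not given, and this difference was not tested.

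Some lincRNA genes had summits inside the gene but outside the promoter window. This was so for 10 genes (5.15%), against 3.68% of protein-coding genes and 1.66% of all nuclear genes. Of the 10, 9 had no promoter summit, so that 33 of the 194 genes (17.0%) had a thresholded summit in the window or the body, against 16.4% of protein-coding genes and 10.8% of all nuclear genes. The classes differ in length, with medians of 761 bp for lincRNA genes, 2027 bp for protein-coding genes and 196 bp for all nuclear genes. The 9 genes held 11 such summits, with signals of 74.3 to 270 and a median of 114. The strongest was in linc-91 (I, 4699610 to 4702866, plus strand), which consists of a single exon, 1981 bp from its 5′ end, with a signal of 270, 147 in replicate 1 and 123 in replicate 2. linc-128 on chromosome V had one of 167 in an exon, 539 bp inside the gene, although its promoter window held only a pooled entry of signal 19.6. Intronic summits were found in linc-95 (139), linc-135 (139), linc-146 (114), linc-159 (102) and linc-129 (77.8). linc-154 had an exonic one of 74.3, within 200 bp of the miRNA gene cel-mir-8196a. Both summits of linc-90 lay in the promoter window of gei-4, 1 of them 21 bp from a 5′ end of that gene. Of the 11 summits, 1, in linc-95, had TGATAA within 50 bp (9.09%, 95% exact interval 0.23 to 41.3%), against 43.7% of all nuclear summits, 50.6% of those in no protein-coding window other than the lincRNA promoter summits, and 19 of the 28 lincRNA promoter summits. The interval lies below the first 2 of these shares, but the set is small and no difference was tested. It also counts the 11 summits as independent, although the peaks of the linc-91 pair overlap, and so do those of the linc-90 pair. The share of 50.6% is not a matched one, because the linc-90 summits lie in a protein-coding window and the others are among the summits behind it. For the other nuclear summits in protein-coding windows the share was 38.3%, which lies inside the interval. The only gene with both kinds, K09A9.12, had a body summit of signal 111 with TGATAA in its exon, 466 bp from the 5′ end of its neighbour ent-2, named as an equilibrative nucleoside transporter.

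Weaker entries were listed at many more members. An entry of the pooled list, which holds background by design, had its summit in the promoter window of 89 lincRNA genes (45.9%), against 42.0% of protein-coding genes and 34.6% of all nuclear genes. The replicate lists gave 80 (41.2%) and 85 (43.8%) lincRNA genes, against 40.9% and 41.5% of protein-coding genes and 32.2% of all nuclear genes in either list, and 64 lincRNA genes had an entry in both. The 65 genes with pooled entries but no thresholded promoter summit had a strongest entry of signal 16.1 to 66.7, with a median of 32.3. Of these, 35 had an entry in both replicates, 21 in 1 of them and 9 in neither. Neither this split nor the count of 64 is given for other gene classes. Just outside the threshold, which lay at a signal of 67.6, was linc-1 (I, plus strand) with 66.7 and a −log10 q-value of 1.94. The next were C07D10.7 (63.2), linc-138 (62.5), K07C10.8 (54.4) and linc-135 (52.9), and each of these 5 genes had an entry in both replicates. The entry of linc-1 was 50 bp downstream of its 5′ end, with 35.3 in replicate 1 and 30.4 in replicate 2, in no protein-coding window. Just inside the threshold was the peak of T09F5.12, with a −log10 q-value of 2.16.

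No entry of any list fell in the promoter windows of 84 lincRNA genes. The matching share of other gene classes is not given, so this count does not set the lincRNA genes apart. Among the 84 is lep-5 on chromosome X, whose RNA is known to act in the developmental timing of the nervous system and the male tail. A missing entry says that no peak was called there in these lists, and with the depth unknown no lower limit of binding can be given.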

How the data were processed

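The deposited files used are 4 peak lists in narrowPeak format on the genome build ce11. They are 1 for each replicate, 1 for the pooled replicates, and 1 thresholded by the irreproducible discovery rate (IDR). IDR is a measure of agreement between replicates. These roles are per the file listing deposited with them. The strongest promoter peak of each lincRNA gene had the same rank by signal in the thresholded and pooled lists, down to 3935 at T09F5.12. At these peaks the thresholded list thus followed the order of pooled signal. The replicate and pooled lists are peaks together with background, made as IDR input. The peak signal and the −log10 q-value are the authors' deposited values. For the scale of the signal, the aligner, the caller and the IDR threshold, the value is not given in the sources used here. Lists on ce10 were not used. Depth is unknown from the lists.

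Genes came from Ensembl release 115 (WBcel235, the assembly of ce11), bases from RefSeq's copy of it, and positions are 1-based. Replicate entries were matched by an overlap of at least 1 bp, taking the nearest summit. Analyses used Python 3.11.15 and exact binomial (Clopper-Pearson) intervals from scipy 1.17.1. The window search was tested on simulated summits. No test between groups was possible with 1 group, and none between gene classes was made. Alternatives were other windows, 5′ ends, overlap in place of summits, stronger peaks, single replicates and other site definitions.

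The members and lists were chosen with earlier results of these data known. Named were the 12 lincRNA genes of highest promoter signal, those with summits in no protein-coding window, lep-5, the 5 strongest below the threshold, those with body summits, and their neighbours. The remaining genes with a promoter summit, and linc-49, linc-83 and linc-141 as neighbours of listed genes, are also given.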

Additional observations from a re-analysis of the deposited data

How the results depend on the processing

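The count of 24 lincRNA genes with a promoter summit was 18 when windows held 500 bp before and 100 bp after the 5′ end, 27 when they held 2000 bp before and 500 bp after it, 25 when any overlap of peak and window counted, and 24 with the 5′ end of the gene only. With the 2049 strongest thresholded peaks it was 15 (7.73% of lincRNA genes, against 7.05% of protein-coding genes). With a single replicate's strongest 4098 entries it was 23 to 24, where T09F5.12, linc-38 and linc-80 were lost without replicate 1 and linc-37 without replicate 2. With the wider window 13.9% of lincRNA genes had a summit, against 18.0% of protein-coding genes.

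The count of 11 genes with summits in no protein-coding window was 7 with the wider window, and 11 to 12 with single replicates. The wider window applied to protein-coding genes too, and it also brought in further lincRNA summits, 34 in place of 28. The share of lincRNA summits with TGATAA, 67.9%, was 42.9% within 25 bp (28.0% of all nuclear summits), 39.3% for TGATAAG (26.2% of all) and 61.1% among the 2049 strongest peaks (50.8% of all). With single replicates it was 57.1% to 65.4%, against 41.3% and 41.0% of the same lists' nuclear summits. No paired analysis was possible because there is 1 group. The unknown depth limits every statement on genes without an entry.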
